A study of Mus musculus with 3 samples.

Results

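Glycolysis splits glucose into pyruvate in a chain of cytosolic enzymes, and the genes described here were those of that chain and of the steps on either side of it. All 30 genes of the module were chosen by name, for their role in the pathway, and all 30 were found among the 27998 genes measured. They were the glucose carriers Slc2a1 and Slc2a3, the hexokinases Hk1 and Hk2, the isomerase Gpi1, the phosphofructokinases Pfkl, Pfkm and Pfkp, the regulators Pfkfb1, Pfkfb2, Pfkfb3 and Pfkfb4, and the aldolases Aldoa and Aldoc. The later steps of the chain were covered by Tpi1, Gapdh, Pgk1, Pgam1, the enolases Eno1, Eno2 and Eno3, and Pkm. Ldha, Ldhb, the lactate carriers Slc16a1 and Slc16a3, the pyruvate dehydrogenase kinases Pdk1 and Pdk3, Bpgm and Bnip3 completed it.

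Glucose enters a cell through carriers of the Slc2a family, is trapped by hexokinase and is committed to glycolysis by phosphofructokinase. Pyruvate is then either reduced to lactate by lactate dehydrogenase and exported by Slc16a3, or passed to the mitochondrion unless a pyruvate dehydrogenase kinase blocks that entry. Several of these genes are known targets of the hypoxia-inducible factors, and many steps have tissue-specific isozymes, such as Eno3 in muscle. The aorta-gonad-mesonephros region (AGM) is where the first haematopoietic stem cells (HSCs) arise from endothelial cells of the aorta, and it also holds primordial germ cells, neural tube, somite, nephric and gut tissue.

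The study measured single-cell RNA with droplets (10x Genomics, version 2), where each transcript is read near its 3' end and counted by its unique molecular identifier (UMI), in AGM cells pooled from mouse embryos at E10.5 with 28 to 32 somite pairs. The 3 sorted populations, with 1 sample each, were a T1-preHSC gate (Ter119-CD31+VCad+CD41lowcKit+), an endothelial gate (Ter119-CD31+VCad+CD41-cKit+) and live Ter119- niche cells. No treatment is named, and the sources used here give neither strain nor genotype. The deposited matrix pools all of them, with 78653331 UMIs over 9492 barcodes, a median of 7544 UMIs per barcode and 8 barcode suffixes, called libraries 1 to 8 below, that no label ties to a population. The labels describe 2 lanes per population, which would make 6, so libraries may be lanes of 1 cell pool, and agreement between them is not agreement between biological replicates. The matrix was therefore treated as 1 sample, without any statistical test. Intervals in brackets are exact 95% intervals (Poisson for summed counts, Clopper-Pearson binomial for shares) and cover counting error only. Libraries 1 to 4 held most niche cells, libraries 5 and 6 most endothelial and germ cells, and libraries 7 and 8 most pre-HSC-like cells, with total UMIs per library from 1625564 to 16215454. Across libraries, 54 barcode sequences occurred more than once.

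Cells were classed by how many genes of fixed marker lists each one expressed. The blood and vessel classes were Cdh5-negative blood (107 cells), pre-HSC-like (170), arterial-gated endothelial (81), venous-gated endothelial (1192) and other endothelial-like cells (817), with 2090 endothelial-like cells in all. There were also 103 megakaryocyte-like, 57 macrophage-like and 227 germ-cell-like cells, and 3407 cells in 10 niche classes. A further 3204 cells had too few markers for a name and were not compared. Pre-HSC-like cells carried a blood programme together with Cdh5, the gene of VE-cadherin, and were led by Spi1, Nupr1 and Runx1. Of these cells, 45 had a single Cdh5 UMI, so the border with the 107 Cdh5-negative cells, which were led by the granule genes Prtn3 and Mpo, was not sharp. The arterial gate was also narrow, since 44 of its 81 cells stood at its threshold and 85 endothelial-like cells stood 1 marker below it. Germ-cell-like cells were led by Dppa5a and Dppa3, and all 11 of their markers were detected, at a summed 5961 CPM (counts per 1000000 UMIs of the class). Endothelial markers summed to 141 CPM in the same cells.

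Promoter sequence is shown for 4 members that turn up repeatedly in the comparisons below, the entry carrier, the exit carrier and 2 enzymes of the lower chain. The windows are the 250 bases before the first RefSeq start listed for each gene (GRCm38.p6), 5′ to 3′ on the strand of the gene, and capitals mark ACGTG and GCGTG on either strand, the core letters of hypoxia response elements. Slc2a1 is at chr4:119108495-119108744 and Slc16a3 at chr11:120948817-120949066. Pgam1 is at chr19:41911621-41911870 and Pkm at chr9:59656326-59656575, all on the plus strand.
Slc2a1: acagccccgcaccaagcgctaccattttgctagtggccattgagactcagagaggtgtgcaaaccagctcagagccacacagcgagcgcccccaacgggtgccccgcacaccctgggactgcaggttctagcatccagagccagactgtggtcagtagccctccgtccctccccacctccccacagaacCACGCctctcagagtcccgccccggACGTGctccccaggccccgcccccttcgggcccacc
Slc16a3: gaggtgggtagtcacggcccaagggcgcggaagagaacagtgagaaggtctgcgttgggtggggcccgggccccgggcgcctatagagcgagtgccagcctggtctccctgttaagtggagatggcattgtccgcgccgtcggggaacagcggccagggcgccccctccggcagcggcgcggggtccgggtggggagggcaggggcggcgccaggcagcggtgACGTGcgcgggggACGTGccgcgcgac
Pgam1: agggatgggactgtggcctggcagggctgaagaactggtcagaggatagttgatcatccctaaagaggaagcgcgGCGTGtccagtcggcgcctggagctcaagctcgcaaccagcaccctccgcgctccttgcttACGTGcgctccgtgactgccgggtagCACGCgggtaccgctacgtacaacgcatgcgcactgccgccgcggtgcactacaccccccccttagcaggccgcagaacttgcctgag
Pkm: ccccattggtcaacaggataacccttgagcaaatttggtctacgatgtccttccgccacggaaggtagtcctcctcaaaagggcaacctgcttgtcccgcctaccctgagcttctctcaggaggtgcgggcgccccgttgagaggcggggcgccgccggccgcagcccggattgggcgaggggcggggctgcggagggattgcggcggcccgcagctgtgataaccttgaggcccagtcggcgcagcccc

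The Slc2a1 and Slc16a3 windows held 2 matches each, the Pgam1 window 3 and the Pkm window 0, although a second listed Pkm start has 1 in its window. Of the 29 members with a RefSeq window (Slc2a3 was not among them), 12 held ACGTG in the first one, which is 41.4%, against 16.6% of the first windows of 27025 genes. ACGTG or GCGTG was present in 21 of the 29, or 72.4%, against 38.6% of all genes. A match is a string of letters and not a bound site. Members and all genes were not matched for base composition or expression level, and the part of either in these shares was not tested.

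The module drew 0.842% of all UMIs, and its 6 highest members (Gapdh, Pkm, Ldha, Aldoa, Pgam1 and Eno1) held 82.5% of the module's UMIs. Pre-HSC-like cells gave the lowest share of the 18 classes, 0.417% of their UMIs (0.409 to 0.426), with libraries 5 to 8 between 0.393% and 0.442%. Cdh5-negative blood reached 0.613% (0.600 to 0.626). Arterial-gated cells gave 0.747%, venous-gated cells 0.671% and all endothelial-like cells 0.707% (0.703 to 0.711), and the lowest of 6 endothelial libraries, at 0.704%, stood above the highest pre-HSC-like one. Germ-cell-like cells gave 0.542%, against 0.962% in the niche classes together.

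**Figure D1:**
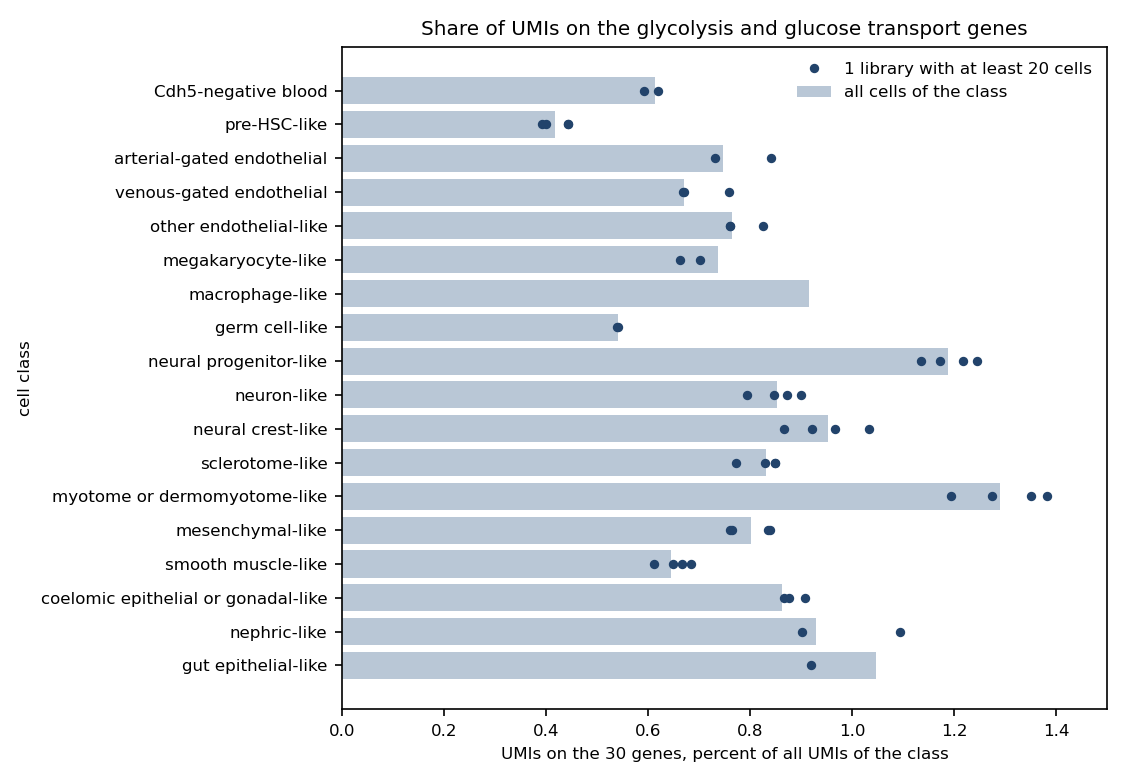
Share of the UMIs of each cell class (bars, percent, x axis) that fell on the 30 genes, with 1 point per library holding at least 20 cells of the class. Pre-HSC-like cells stand lowest at 0.417%, and the myotome or dermomyotome-like and neural progenitor-like cells highest at 1.29% and 1.19%.

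Among the niche classes the share ran from 0.645% in smooth muscle-like to 1.29% in myotome or dermomyotome-like cells, the class of forming skeletal muscle. Neural progenitor-like cells came second at 1.19% (libraries 1.14% to 1.25%), well above neuron-like cells at 0.853% (0.795% to 0.901%). Cell-to-cell spread was wide in every class: the 5th and 95th percentiles of single cells were 0.189% and 0.673% in pre-HSC-like cells and 0.305% and 1.21% in endothelial-like cells. Niche cells of libraries 5 and 6 gave a lower share than those of libraries 1 to 4, with 0.676% as the lowest of the 6 libraries. Only 23 and 22 niche cells lay in libraries 5 and 6, of which 9 and 7 were smooth muscle-like, and the smooth muscle marker list there summed to 3816 and 2795 CPM, against 320 to 422 CPM in libraries 1 to 4. Ratios to the niche within libraries 5 and 6 are therefore ratios to another mixture of cells.

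Of the 30 members, 21 reached 50 CPM in at least 1 class and 8 (Gpi1, Aldoa, Tpi1, Gapdh, Pgam1, Eno1, Pkm and Ldha) did so in all 18 classes. The 9 that stayed below 50 CPM everywhere were Pgk1 (up to 46.9 CPM), Pfkp (46.2), Pfkm (13.9), Pfkfb3 (13.7), Aldoc (10.9), Pfkfb4 (8.20), Pfkfb1 (8.20), Pfkfb2 (2.18) and Eno2 (2.18). Eno2, the enolase of neurons, was detected with 7 UMIs in the whole dataset and with 0 in neuron-like cells. Whether the counting reference covers the 3' ends of Eno2 and Pgk1 was not tested. Transcript ends also limit 3 other members, because 88.0% of the 60-base windows in the last 500 bases of Gapdh, 70.1% of those of Eno1 and 20.2% of those of Ldhb occur unchanged in other annotated transcripts (GENCODE M21), mostly pseudogenes. The sources used here do not say how reads shared with these copies were counted, so the levels of these 3 genes are uncertain. In the matrix itself, the Eno1 copy Eno1b held 1.296% of the UMIs of the pair and the Gapdh copy Gm3839 0.0188%.

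**Figure D2:**
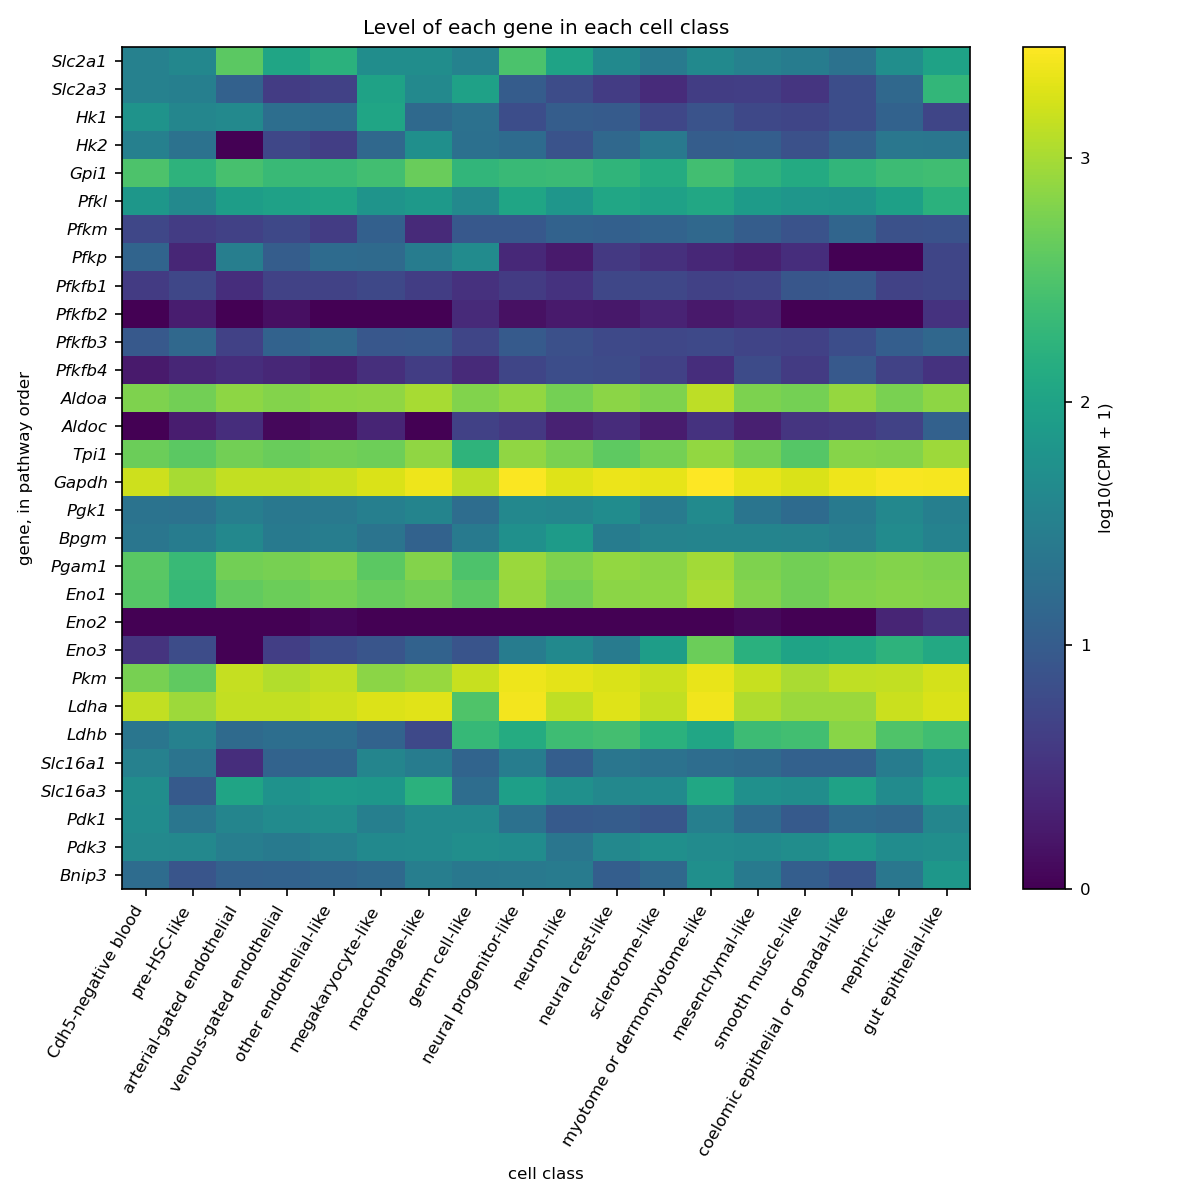
Level of the 30 genes (rows, in pathway order) in the 18 cell classes (columns), as log10(CPM + 1). The upper rows show Slc2a1 brightest in arterial-gated cells and Slc2a3 in gut epithelial-like, megakaryocyte-like and germ-cell-like cells, and Eno3 stands out in the myotome or dermomyotome-like column.

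RNA of the glucose carrier Slc2a1 differed between the 2 gated kinds of endothelium. A gene was called different between classes when the log2 ratio of CPM + 10 was at least 1 in size, the higher class had at least 50 CPM, and the direction was the same in each library that held 20 or more cells of each class. Slc2a1, the main glucose carrier of endothelium, was at 309 CPM in arterial-gated cells of library 5 and 543 CPM in those of library 6, against 109 CPM in venous-gated cells of either library. The arterial-gated values stood above the venous-gated ones in both libraries. Pooled, the levels were 381 CPM (332 to 437) and 108 CPM (102 to 114), a log2 ratio of 1.73, with 1.43 in library 5 and 2.22 in library 6. One arterial-gated cell of library 6 held 32 of the 210 Slc2a1 UMIs, and without it the pooled level was 329 CPM. Slc2a1 had at least 1 UMI in 64.2% of arterial-gated and 50.4% of venous-gated cells, at median depths of 6219 and 8432 UMIs.

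Slc2a1 was the single member called among the 11 that reached 50 CPM, where 2.84% of 3129 genes were called higher in arterial-gated cells and 0.639% lower. The median log2 ratio of the 11 was 0.17, against 0.04 over all genes tested, and TMM scaling (trimmed mean of M-values) would lower the ratios of high genes here by 0.11, and those of low genes by less because of the 10 CPM added. Slc16a3, which exports lactate, was at 89.9 and 145 CPM in arterial-gated cells of libraries 5 and 6, against 60.7 and 53.0 CPM in venous-gated cells, a pooled log2 ratio of 0.76 that missed the threshold. Hk1 (41.8 against 16.9 CPM) and Pfkp (29.1 against 9.46 CPM) leaned the same way below 50 CPM. The enzymes between them did not differ by the rule, with Gapdh at 1378 against 1375 CPM and Ldha at 1366 against 1358 CPM. Genes of the smooth muscle list (8 genes, 3 of them at 0) summed to 75.5 and 515 CPM in arterial-gated cells of libraries 5 and 6, against 14.9 CPM in venous-gated cells. Smooth muscle-like cells themselves held 26.8 CPM of Slc2a1, and the log2 ratio was 1.78 once arterial-gated cells with 2 or more smooth muscle markers were left out.

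Pre-HSC-like cells had lower levels than endothelial-like cells of 3 enzymes late in the chain (Pkm, Pgam1 and Eno1) and of the lactate carrier Slc16a3, and, less firmly, of Slc2a1 and Pfkl. Of 11 members at 50 CPM, 6 were called lower and 0 higher, where 8.9% of 3111 genes were called lower and 4.98% higher. All 11 ratios were below 0, with a median of -1.06 against -0.07 over all genes tested, and the medians within libraries 5 and 6 were -0.59 and -0.90. Most pre-HSC-like cells (47 and 69) came from libraries 7 and 8, which held 5 and 10 endothelial-like cells, so the library and the class are partly confounded. Only libraries 5 and 6, with 22 and 21 pre-HSC-like cells, hold enough of both. Macrophage markers (12 genes, 6 of them at 0 in pre-HSC-like cells) summed to 175 CPM in pre-HSC-like cells (167 to 257 in libraries 5 to 8) and 5.74 CPM in endothelial-like cells, and smooth muscle markers to 177 CPM (116 to 332) and 23.4 CPM; their part in the result was not tested.

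Pkm, which makes pyruvate in the last step of glycolysis, was at 466, 461, 403 and 386 CPM in pre-HSC-like cells of libraries 5 to 8, against 1206 and 1230.2 CPM in endothelial-like cells of libraries 5 and 6. The groups did not overlap, and the endothelial-like cells of libraries 1 to 4 were higher still. The pooled levels of 406 CPM (380.0 to 433) and 1226 CPM (1209.8 to 1243) gave a log2 ratio of -1.57. Slc16a3 was at 5.83, 0, 15.0 and 4.70 CPM in pre-HSC-like cells of libraries 5 to 8, on 19 UMIs in all, against 66.7 and 61.9 CPM in endothelial-like cells of libraries 5 and 6. Its pooled ratio of -1.998 was the lowest of the 6, with -2.28 and -2.85 within those libraries.

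Pgam1, which moves the phosphate group of phosphoglycerate, was at 221, 257, 252 and 196 CPM in pre-HSC-like cells of libraries 5 to 8, against 583 CPM in endothelial-like cells of library 5 and of library 6, a pooled log2 ratio of -1.35. Eno1, the next enzyme, was at 181, 257, 213 and 192 CPM in pre-HSC-like cells, against 499 and 490 CPM in endothelial-like cells of libraries 5 and 6, a pooled ratio of -1.29. No pre-HSC-like library reached an endothelial-like one for Pkm, Pgam1 or Slc16a3, and the same held for Eno1.

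Slc2a1 and Pfkl, the liver-type phosphofructokinase, were called lower with less margin. Slc2a1 was at 87.4 and 59.3 CPM in pre-HSC-like cells of libraries 5 and 6 and 34.1 and 32.9 CPM in those of libraries 7 and 8, against 136 and 138 CPM in endothelial-like cells of libraries 5 and 6. Its pooled log2 ratio was -1.57, but -0.58 in library 5 and -1.10 in library 6, and -0.82 with both libraries given equal weight. Pfkl gave a pooled ratio of -1.06, at 41.9 against 98.3 CPM, and -0.70 with equal weight, so neither call held at that setting. Pfkl also gave -0.93 without library 8.

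The other members at 50 CPM differed less when pooled. Gpi1, Aldoa, Tpi1, Gapdh and Ldha had pooled ratios from -0.69 (Ldha, 884 against 1433 CPM) to -0.34 (Gpi1) and were not called. Within library 6, Gapdh (-0.91) and Gpi1 (-0.89) were close to Eno1 (-0.90). In library 5 they were at -0.52 and -0.30, against -1.42 for Eno1. The hexokinases and the second glucose carrier went the other way when pooled, all below 50 CPM. Slc2a3, a high-affinity glucose carrier, was at 40.8 and 39.5 CPM in pre-HSC-like cells of libraries 5 and 6, against 3.997 and 2.93 CPM in endothelial-like cells. Hk2 was at 18.9 against 3.96 CPM and Hk1 at 37.4 against 17.2 CPM, pooled. The log2 ratio of Hk2 was 0.62 in library 5 and 0.79 in library 6. That of Hk1 was 0.72 in library 5 but -0.17 in library 6, so its direction did not hold in both.

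**Figure D3:**
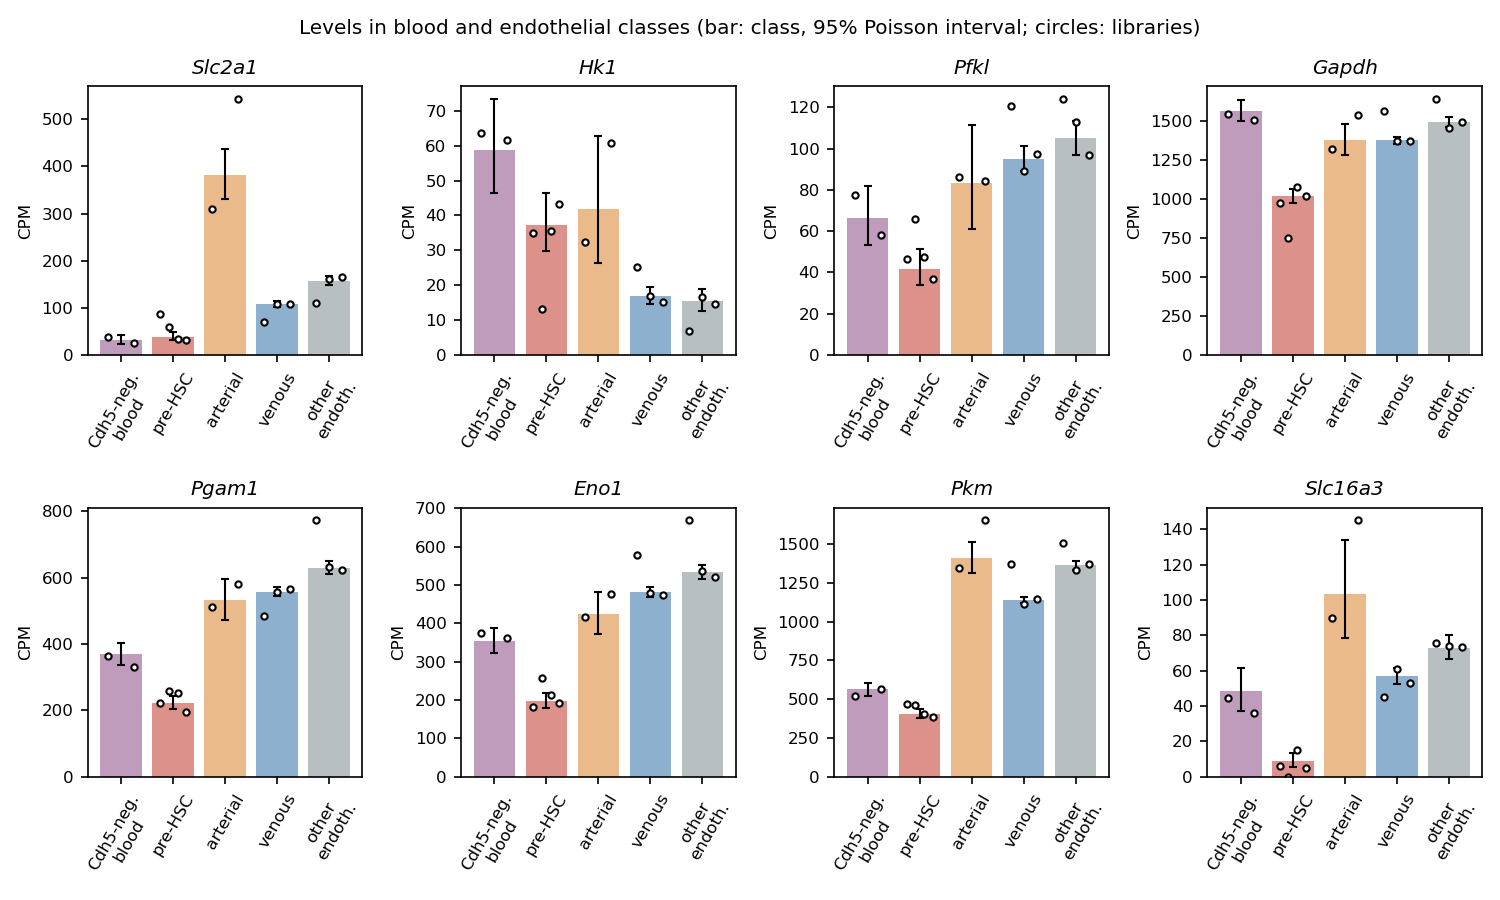
Levels (CPM, y axes from 0) of 8 genes in Cdh5-negative blood, pre-HSC-like and the 3 endothelial classes. Bars give the class with its 95% Poisson interval and circles the libraries with at least 20 cells, and Pkm at 406 CPM in pre-HSC-like cells lies below every endothelial circle.

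Set against arterial-gated cells alone, the vessel type from which HSCs emerge, 5 of 11 members were lower in pre-HSC-like cells and 0 higher, where 14.1% of 3308 genes were called lower and 5.29% higher. This comparison shares its pre-HSC-like cells with the previous one, and TMM scaling would raise the ratios of high genes by 0.13. Slc2a1 was the widest apart, at 38.7 against 381 CPM, with a pooled log2 ratio of -3.01 (-1.71 in library 5 and -2.997 in library 6). Slc16a3 followed at -2.61, Pkm at -1.77 and Pgam1 at -1.22. Eno1, at 198 against 425 CPM, gave -1.07 and lost its call without library 6 (-0.98), with TMM scaling (-0.94) and at equal library weight (-0.9993, a size just under 1).

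Within blood, Cdh5-negative cells held more of the pathway than pre-HSC-like cells, though no member passed the rule. Of 10 members at 50 CPM, 0 were called in either direction, where 1.89% of 2909 genes were called higher and 2.89% lower. All 10 ratios were above 0, with a median of 0.59 against 0.00 over all genes tested, and medians of 0.52 and 0.54 in libraries 7 and 8. Of these 10, Eno1, at 355 against 198 CPM, and Gpi1, at 308 against 171 CPM, were the furthest apart at 0.81 each. Slc16a3, just below 50 CPM, was further apart, at 48.3 against 8.55 CPM, a log2 ratio of 1.65. Gpi1 had a ratio of 1.04 without library 8, enough for a call. Markers of granulocyte and monocyte progenitors (5 genes, 1 of them at 0 in either class) summed to 958 CPM in Cdh5-negative blood and 139 CPM in pre-HSC-like cells, with 495 to 710 CPM in libraries 7 and 8 of the Cdh5-negative cells and 26.4 to 169 CPM in libraries 5 to 8 of the pre-HSC-like cells. Their part in the result was not tested.

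Slc2a3 held a larger part of glucose carrier UMIs in blood than in endothelium. It made up 50.6% of the UMIs of the 2 carriers in Cdh5-negative blood (39.5 to 61.6), 43.4% in pre-HSC-like cells (35.4 to 51.7) and 46.4% in macrophage-like cells, against 2.58% in endothelial-like cells (1.99 to 3.30). Such shares are compared between classes only, since the capture of a gene's own 3' end is shared by all of them. Megakaryocyte-like cells fell into 2 sets by library, which also differed in the markers of the class. The megakaryocyte list (12 genes) summed to 28060 CPM in the 38 cells of libraries 1 to 4 (23094 to 36319 by library), with a median of 9.5 markers per cell, and to 624 CPM in the 64 cells of libraries 7 and 8 (579 to 699), with 1 gene at 0 and a median of 4 markers per cell, the number the gate asks for. Haematopoietic markers (14 genes) were at 1239 and 1493 CPM and a median of 4 and 8 per cell in the same sets, so the class name rests on few markers in libraries 7 and 8. Slc2a3 was at 254, 309, 341 and 319 CPM in the 8, 12, 11 and 7 megakaryocyte-like cells of libraries 1 to 4, and at 30.001 and 25.1 CPM in the 26 and 38 cells of libraries 7 and 8. The 2 sets did not overlap, and the pooled level of 97.1 CPM describes neither. Slc16a3 was also higher in the first set, at 125 against 47.0 CPM, whereas Slc2a1 was at 52.1 and 47.0 CPM. Library, sort and kind of cell cannot be told apart here. Hk1, which peaked in megakaryocyte-like cells at 105 CPM (89.9 to 123), was at 141 CPM in libraries 1 to 4 and 93.1 CPM in libraries 7 and 8.

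The balance of the hexokinases also varied between classes. Hk2 made up 18.8% of the 2 hexokinases in endothelial-like cells (14.9 to 23.1), against 65.2% in the niche classes (61.1 to 69.1). It made up 11.4% in megakaryocyte-like cells, but 4.50% without library 8 (Hk2 was at 2.60 CPM in libraries 1 to 4 and 17.4 CPM in libraries 7 and 8), and 78.05% in macrophage-like cells (62.4 to 89.4), where Hk2 reached its highest level of 51.1 CPM, with an interval that overlapped that of Cdh5-negative blood at 30.9 CPM. In arterial-gated cells no Hk2 UMI was seen in 550655 UMIs, which allows up to 5.45 CPM, against 4.49 CPM in venous-gated cells, so a difference was not detectable at this depth. Gpi1 and Slc16a3 were also highest in macrophage-like cells, at 460.1 and 160 CPM.

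Compared with the niche classes, endothelial-like cells held little of 2 isozymes. Of 13 members at 50 CPM, 2 were called lower and 0 higher, where 6.11% of 3271 genes were called lower and 9.05% higher. TMM scaling would raise the ratios of high genes by 0.20. Eno3, the muscle enolase, was at 11.4, 13.3, 4.44, 8.68, 3.03 and 4.17 CPM in endothelial-like cells of libraries 1 to 6, against 112, 113, 105, 110.4, 45.4 and 75.0 CPM in niche cells, a pooled log2 ratio of -3.09. Ldhb, the lactate dehydrogenase subunit typical of heart, was at 19.9, 48.8, 48.9, 17.4, 17.1 and 14.2 CPM in endothelial-like cells, against 180, 232, 236, 213, 273 and 100.0 CPM in niche cells, a ratio of -3.08. No endothelial-like library reached the niche for either gene. Ldhb made up 1.13% of lactate dehydrogenase UMIs in endothelial-like cells (1.01 to 1.27) and 11.2% in the niche classes (10.96 to 11.5). The other 11 ratios ran from -0.70 (Gapdh) to 0.28 (Slc2a1), with a median over the 13 of -0.30, against -0.06 over all genes. Within libraries 1 to 4 the medians of the 13 were -0.15, -0.33, -0.17 and -0.31, but in libraries 5 and 6 they were 0.22 and 0.12. Libraries 5 and 6 hold 1004 and 957 of the endothelial-like cells, but only 23 and 22 niche cells. Pdk1, which blocks the entry of pyruvate into the mitochondrion, was at 46.9 CPM in endothelial-like cells and 14.6 CPM in the niche, below the 50 CPM asked.

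Germ-cell-like cells differed from the niche in their balance of glucose carriers and lactate dehydrogenases. Of 14 members at 50 CPM, 6 were called lower than in the niche classes and 1 higher, where 21.7% of 3181 genes were called lower and 8.11% higher. The median ratio was -0.93, against -0.22 over all genes, and TMM scaling would raise the ratios of high genes by 0.22. In libraries 5 and 6, which hold 106 and 104 of the germ-cell-like cells but few niche cells, the medians were -0.51 and -0.41.

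Ldha was at 302 and 337 CPM in germ-cell-like cells of libraries 5 and 6, against 904 and 1025 CPM in niche cells of the same libraries and 1650.2 to 1747 CPM in niche cells of libraries 1 to 4. The pooled log2 ratio was -2.37, and -1.55 and -1.58 within the 2 libraries. Germ-cell-like cells, at 319 CPM, lay below all 10 niche classes, the lowest of which was smooth muscle-like at 857 CPM. Ldhb did not follow, at 205 against 214 CPM, so that it made up 39.1% of lactate dehydrogenase UMIs in germ-cell-like cells (36.1 to 42.2; 42.5% and 35.2% in libraries 5 and 6), against 11.2% in the niche. Of the niche classes, the coelomic epithelial or gonadal-like cells came nearest, at 44.5% (41.6 to 47.5). They also held the highest Ldhb level of any class, 701 CPM.

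Tpi1, the triose phosphate isomerase, was at 167 and 181 CPM in germ-cell-like cells of libraries 5 and 6, against 436 and 410 CPM in niche cells there, a pooled ratio of -1.75. It too lay below all 10 niche classes, at 174 CPM against 353 CPM in the lowest. Eno3 gave -2.83, at 6.82 against 109.8 CPM. These 3 calls, Ldha, Tpi1 and Eno3, were the lower calls that also held when libraries 5 and 6 were weighted equally. Slc16a3 (pooled -1.53), Pgam1 (-1.19) and Slc2a1 (-1.45) gave -0.86, -0.55 and -0.50 at that setting. Pgam1 gave -0.97 with TMM scaling and Slc2a1 -0.94 with the 10 niche classes weighted equally. Pkm, by contrast, was at 1466 against 1851 CPM pooled and was slightly higher in germ-cell-like cells in libraries 5 (1512 against 1186 CPM) and 6 (1413 against 1340.2 CPM).

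Slc2a3 was the member called higher in germ-cell-like cells. It was at 94.97 and 94.2 CPM in germ-cell-like cells of libraries 5 and 6, against 9.08 and 0 CPM in niche cells there, and the pooled 93.9 and 8.20 CPM gave a log2 ratio of 2.51. It was seen in 49.3% of germ-cell-like cells and 5.11% of niche cells, at median depths of 8197 and 7867 UMIs. Slc2a3 made up 73.7% of the UMIs of the 2 carriers in germ-cell-like cells (67.7 to 79.1) and 6.98% in the niche (6.15 to 7.88). Gut epithelial-like cells were the niche class above them, at 194 CPM, but unevenly so, with 115, 362, 413 and 51.0 CPM in libraries 1 to 4 on 16, 17, 11 and 22 cells. Pfkp, the platelet-type phosphofructokinase, was highest in germ-cell-like cells, at 50.1 and 39.8 CPM in libraries 5 and 6 (its interval overlapped that of arterial-gated cells), against 0 and 5.00 CPM in niche cells there. It supplied 48.6% of phosphofructokinase UMIs in germ-cell-like cells (41.1 to 56.1) and 1.39% in the niche (1.001 to 1.87).

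**Figure D4:**
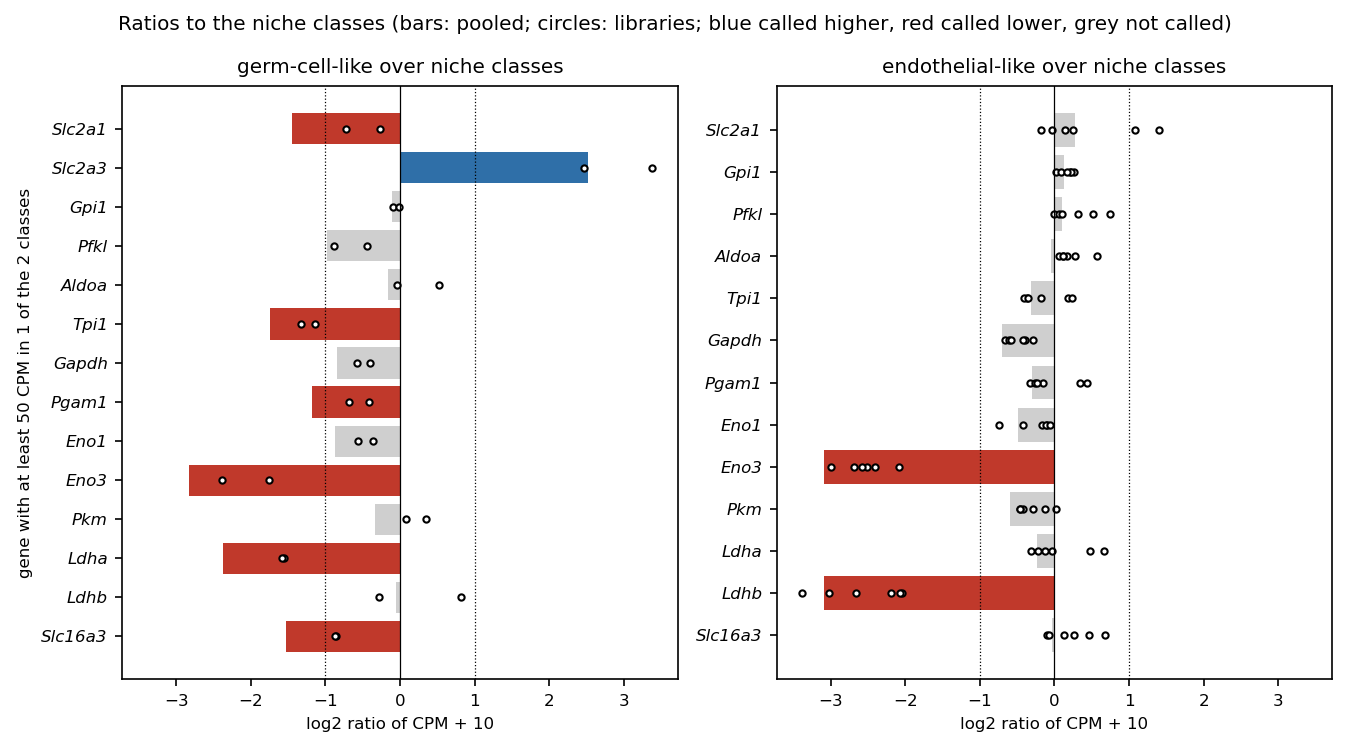
Log2 ratio of CPM + 10 of each gene with at least 50 CPM in 1 of the 2 classes, for germ-cell-like cells (left) and endothelial-like cells (right) over the niche classes. Bars give pooled ratios, coloured by call, and circles single libraries; in the left panel most circles lie nearer 0 than the bar, and Slc2a3 is the 1 gene called higher, at 2.51.

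Several members were highest in the muscle or neural progenitor classes of the niche. Myotome or dermomyotome-like cells had the highest Eno3, at 482 CPM (427 to 557 in libraries 1 to 4), followed by nephric-like cells at 170 CPM. Eno3 made up 31.6% of enolase UMIs there (30.2 to 33.1), against 13.5% in the niche as a whole, a value that contains these cells. The same cells led in Aldoa (1306 CPM), Gapdh (2860.0 CPM), Pgam1 (949 CPM) and Eno1 (1042 CPM), with intervals that did not overlap those of the next class. Neural progenitor-like cells led in Pkm (2303 CPM) and Ldha (2507 CPM). Their Slc2a1, at 278 to 333 CPM in libraries 1 to 4 and 300.3 CPM pooled (287 to 314), was second to arterial-gated cells, against 101 CPM in neuron-like cells.

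Bpgm makes the 2,3-bisphosphoglycerate that lowers the oxygen affinity of haemoglobin in red cells. Among the gated classes it was highest in neuron-like cells, at 76.7 CPM (67.4 to 84.6 in libraries 1 to 4). Red cells had no class of their own and were not ranked. Gut epithelial-like cells held the highest Tpi1 (902 CPM), Slc16a1 (54.5 CPM), Pfkl (161 CPM) and Bnip3 (67.6 CPM), the last being a mitophagy receptor and hypoxia target. For Slc16a1, Pfkl and Bnip3 the interval overlapped that of the next class. The gut epithelial-like class held 66 cells, at most 22 per library (library 4, with a module share of 0.919% against 1.05% pooled). Nephric markers (7 genes, all detected) summed to 183 CPM in gut epithelial-like cells and 871 CPM in nephric-like cells. Gut epithelial markers summed to 1935 and 612 CPM in the same classes. Wfdc2, Calb1, Cldn6, Epcam and Cldn7 were among the leading genes of both, so their border may not be sharp. Pdk3, a pyruvate dehydrogenase kinase, was highest in the coelomic epithelial or gonadal-like class, at 69.7 CPM, with an interval that overlapped that of sclerotome-like cells. Its lowest level was in neuron-like cells, at 21.7 CPM.

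**Figure D5:**
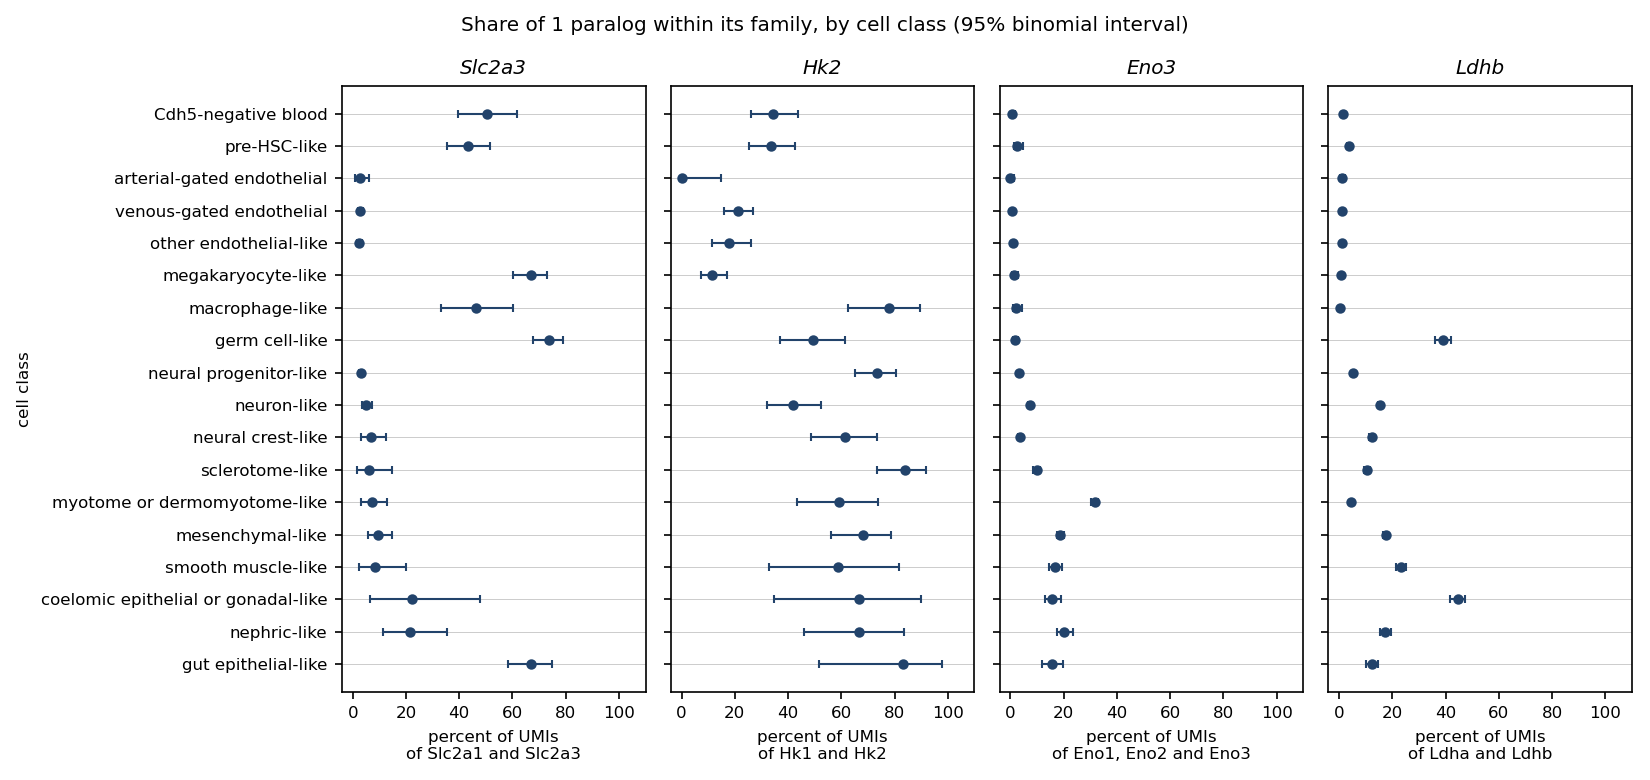
Share of Slc2a3, Hk2, Eno3 and Ldhb within the UMIs of their family (percent, x axis) in 18 cell classes, with 95% binomial intervals. Germ-cell-like cells stand high for Slc2a3 (73.7%) and Ldhb (39.1%), and Eno3 is highest in myotome or dermomyotome-like cells (31.6%).

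Genes around the pathway were read from 5 further lists (106 genes). The tricarboxylic acid cycle list was wider than the cycle, with the cytosolic enzymes Mdh1 and Idh1 and the NADP-dependent Idh2. Between arterial-gated and venous-gated cells, 2 of 10 measured hypoxia-response genes were higher and 0 lower (2.84% and 0.639% of all genes), namely Adm, the vasodilator adrenomedullin, at 56.3 against 6.74 CPM (log2 ratio 1.99), and Epas1, which encodes HIF-2α, at 54.5 against 16.1 CPM (1.304). None of 18 tricarboxylic acid cycle genes, 19 oxidative phosphorylation genes, 4 pentose phosphate genes and 7 other glycolytic genes was called there. In pre-HSC-like against endothelial-like cells, 1 of 8 hypoxia-response genes was lower (8.9% of all genes), the collagen prolyl hydroxylase subunit P4ha1 at 10.4 against 53.9 CPM (-1.65), and 0 of 18 tricarboxylic acid cycle and 0 of 19 oxidative phosphorylation genes were called, with medians of -0.29 and -0.35, against -0.07 over all genes.

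In pre-HSC-like against arterial-gated cells, 4 of 9 hypoxia-response genes were lower, with 14.1% of all genes lower. Among these, Epas1 was at 4.05 against 54.5 CPM, P4ha1 at 10.4 against 69.0 CPM, and Adm had no UMI, which allows up to 1.35 CPM (3 counts), against 56.3 CPM. From the cycle list, 2 of 17 genes were called, the cytosolic Mdh1 (-1.12) and Fh1 (-1.07), a share below that of all genes. The remaining call was 1 of 7 other glycolytic genes, the phosphoglucomutase Pgm2 (-1.14). In Cdh5-negative blood against pre-HSC-like cells none of the measured genes of the 5 lists was called.

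In endothelial-like against niche cells the single call over the 5 lists was Idh1, at 33.8 against 78.9 CPM (-1.02). It encodes a cytosolic isocitrate dehydrogenase and was 1 of 19 genes of the cycle list (6.11% of all genes were lower). In germ-cell-like against niche cells, 3 of 19 oxidative phosphorylation genes were higher and 0 lower (8.11% and 21.7% of all genes), the cytochrome c oxidase subunits Cox7a2 (1.25), Cox4i1 (1.06) and Cox6c (1.02). There, 3 of 17 genes of the cycle list were lower, Idh1 (-2.08), Idh2 (-1.55) and Sdhc (-1.38), a share below the 21.7% of all genes. Also lower were 1 of 4 pentose phosphate genes, the enzyme Pgd (-1.39), and 2 of 6 other glycolytic genes, the mitochondrial pyruvate carrier subunit Mpc2 (-1.51) and Dld (-1.46), a subunit of pyruvate dehydrogenase. The oxidoreductase Ero1l was the 1 of 6 hypoxia-response genes called higher (1.24).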

How the data were processed

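The authors deposited whole-number UMI counts, 1 for each pair of gene and barcode, without normalisation. The submitters' processing notes name Cell Ranger and mm10, and no Cell Ranger version. The deposited gene and barcode names have no measured unit.

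Of 9492 barcodes, 9383 had 1000 UMIs and 500 genes or more with no more than 10% mitochondrial UMIs, and entered the analysis. Gates asked for at least 5 endothelial markers, 4 haematopoietic, macrophage, megakaryocyte or germ markers, or 3 niche markers with a lead of 1. Cells that passed both the endothelial gate and a blood gate (haematopoietic, macrophage or megakaryocyte) went to the blood classes, with any doublets among them. Of 2311 cells that passed the endothelial gate, 2090 were classed as endothelial-like. Pre-HSC-like cells had at least 1 Cdh5 UMI. Arterial-gated cells had at least 2 arterial and at most 2 venous markers, and venous-gated cells at least 4 venous and at most 1 arterial. No doublet caller was run, and 18 barcodes that passed gates of distant classes were left out. Counts were summed per class and scaled to CPM. The members and lists were chosen with earlier results of these data known, and the gate thresholds after the data were seen. All members were described, and of each further list up to 3 called genes per direction were named. The call rule was tested on simulated counts with counting error only. They lacked the spread between cells and libraries of the real data, so the test does not cover it. Python 3.11.15, numpy 2.4.6, scipy 1.17.1 and pandas 2.3.3 were used. Positions are those of GRCm38, the assembly behind mm10, and RefSeq windows those of GRCm38.p6.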

Additional observations from a re-analysis of the deposited data

How the results depend on the processing

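No paired analysis was possible because the labels carry no replicate numbers and no barcode suffix is tied to a sample. No member called at the main setting changed the direction of its ratio at any setting computed. Ratios were followed only for members called at 1 or more settings. Pkm in germ-cell-like cells, lower than in the niche when pooled but higher in libraries 5 and 6, was not among them. Of 194 counts of called members recomputed, 183 stayed within 1.5 times the main count. Of 531 ratios of single members, 501 kept their state, called or not called, 11 lost a call and 19 gained one. The 501 include members that were not called at either setting, so they are not a count of calls that held. Some settings left no library with 20 cells of each class, and no ratio or call was computed there. In pre-HSC-like against endothelial-like or arterial-gated cells, these were the stricter gate, at least 2 Cdh5 UMIs and thinned gates. In germ-cell-like against niche cells, they were the stricter gate and thinned gates. The calls of these comparisons were therefore not checked under those gates. With no level asked, the members called higher were 2 in arterial-gated over venous-gated cells, 2 in pre-HSC-like over endothelial-like cells, 2 in pre-HSC-like over arterial-gated cells, 1 in Cdh5-negative blood over pre-HSC-like cells, 1 in endothelial-like cells over the niche and 3 in germ-cell-like cells over the niche. TMM scaling gave 1 called higher in endothelial-like cells over the niche (Pdk1), and equal weight per library 3 called lower in germ-cell-like cells. Leaving out each library in turn gave 1 to 2 called higher in arterial-gated cells (Hk1 added without library 5), 0 to 2 in Cdh5-negative blood (Slc16a3 and Gpi1 without library 8) and 1 to 2 in germ-cell-like cells (Pfkp without library 6).

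The module's share of UMIs in endothelial-like cells was 0.713% with the stricter cell filter and 0.696% without the 5% of cells with the most UMIs. In pre-HSC-like cells it was 0.391% with gates on counts thinned to 4000 UMIs per cell, and 0.405% to 0.434% leaving out each library. In the niche it was 0.983% with the stricter gate, 0.956% without the deepest cells and 0.966% with thinned gates, and 0.951% to 0.976% leaving out each library. The Eno3 share in myotome or dermomyotome-like cells was 34.0% with the stricter gate and 35.0% with thinned gates. The Ldhb share in germ-cell-like cells was 36.7% to 42.9% leaving out each library. The cause was not tested.

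Thinned gates, arterial-gated cells with fewer than 2 smooth muscle markers, at least 2 Cdh5 UMIs, niche classes with the unnamed cells and niche classes weighted equally were chosen after the data were seen. Depth limits the low members: 3 counts correspond to 5.45 CPM in arterial-gated and 1.35 CPM in pre-HSC-like cells.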
